A study of Mus musculus with 2 samples.

Results

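The cytosolic ribosomal proteins were examined in activated CD8+ T cells from OT-I mice, whose T cells carry a transgenic receptor for an ovalbumin peptide. Single cells were captured on the 10x Chromium platform (v2 chemistry), which counts unique molecular identifiers (UMIs), 1 per captured transcript, at the 3′ end of messages. Members were chosen by gene symbol alone, as the names Rpl or Rps followed by a number (with the endings a, l or x), Rplp0 to Rplp2, and Rpsa. The rule found 81 genes among the 27998 genes of the files, 31 named for the small subunit and 50 for the large subunit. A gene was scored when it reached 10 CPM (counts per 1000000 UMIs) in either library, and 78 members did so. The other 3 were Rpl39l with 38 UMIs in the control library and 19 in the other, Rpl10l with 1 and 0, and Rpl3l with 0 and 0.

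Both groups came from mice aged 8 to 12 weeks, and spleen and lymph node suspensions were activated for 48 h with the peptide and interleukin-2 at 100 U/ml. The control group was then held for 20 h in 11 mM glucose, and the transient glucose restriction group (TGR) for 20 h in 1 mM glucose. The sample descriptions instead give 3 days of culture before the exposure, and the labels do not say how many mice were pooled or whether glucose was restored before capture. The sample titles also carry the tags CD8_hi (control) and CD8_lo (TGR), whose meaning, a sort by CD8 level or something else, no label gives. Cd8a had 364 CPM in the control library and 248 CPM in the TGR library, and Cd8b1 545 and 440 CPM. Other T cell genes were also lower, such as Cd3g (581 and 373 CPM) and Cd2 (328 and 202 CPM), whereas Cd3d was not (677 and 681 CPM). Over all 6589 scored genes that are not members, the median log2 ratio, TGR over control, was -0.16. What the tags mean was not tested. There was 1 library per condition, so no difference below has a replicate check, no test of the conditions was possible, and condition and library cannot be told apart. Intervals are 95% exact binomial (Clopper-Pearson) intervals and cover counting error only.

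After barcodes with fewer than 500 genes, or with 10% or more of their UMIs on mitochondrial genes, had been left out, 3127 of 3336 control and 2546 of 2548 TGR cells remained. They held 14730128 and 19696068 UMIs, with medians of 4030 and 6265.5 per cell. All 7 of the CD8 T cell markers listed and found in the files, Cd3d, Cd8a and Cd8b1 among them, stood above 10 CPM in both libraries, summing to 2992 CPM in the control library and 2341 CPM in the TGR library. The summed markers of myeloid cells came to 116 and 61.9 CPM, nearly all of it Cst3, with Itgax, Flt3 and C1qa at 0 in both. B cell markers summed to 39.4 and 46.0 CPM, NK and gamma delta markers to 9.64 and 4.11 CPM, CD4 T cell markers to 1.97 and 2.59 CPM, erythroid markers to 0.204 and 0 CPM, and stromal markers to 0.204 and 0.0508 CPM. There were 11 barcode sequences in common between the libraries.

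A ribosome joins a small subunit, which reads the message, and a large subunit, which forms the peptide bond, and each ribosomal protein is normally present in 1 copy per ribosome apart from the stalk proteins. Messages of mammalian ribosomal proteins begin with a run of pyrimidines, the terminal oligopyrimidine or TOP tract, through which mTORC1 and the RNA-binding protein LARP1 control their translation and stability. Activated T cells enlarge and build ribosomes before they divide, and these messages are a large part of their RNA. A few members have a paralog, a second gene for a closely related protein.

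The stretches around the transcription start are shown for the 4 members farthest above the family and the 2 farthest below it among those with an entry in RefSeq's promoter table, because the pyrimidine tract begins at that point. Each runs from 60 bases before to the 20 bases from the start onwards, 5′ to 3′ on the gene's own strand, from RefSeq on GRCm38.p6. Capitals mark the motif CTTTC, the motif CTTTT or the motif CTTCC, overlapping matches included, from 30 bases before the start onwards. They lie at chr3:90213629-90213708 (minus strand) for Rps27, chr17:33824543-33824622 (minus) for Rps28, chr11:114668520-114668599 (plus) for Rpl38, chrX:37085203-37085282 (minus) for Rpl39, chr9:66946026-66946105 (plus) for Rps27l and chr7:4792905-4792984 (plus) for Rpl28.
Rps27: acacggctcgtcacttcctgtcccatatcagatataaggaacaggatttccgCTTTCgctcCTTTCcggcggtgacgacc
Rps28: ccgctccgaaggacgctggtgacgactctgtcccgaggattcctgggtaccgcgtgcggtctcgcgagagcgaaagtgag
Rpl38: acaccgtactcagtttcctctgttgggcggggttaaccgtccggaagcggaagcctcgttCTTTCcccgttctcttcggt
Rpl39: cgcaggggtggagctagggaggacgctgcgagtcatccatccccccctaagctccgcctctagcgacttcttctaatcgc
Rps27l: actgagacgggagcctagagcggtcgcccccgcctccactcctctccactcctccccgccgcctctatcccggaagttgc
Rpl28: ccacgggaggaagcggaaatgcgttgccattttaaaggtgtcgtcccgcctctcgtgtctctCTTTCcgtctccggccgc

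Of the 60 members with an entry in that table, 31 (51.7%) held at least 1 of the 3 motifs in this window from 30 bases before to 20 bases after the start, against 6504 of 27025 genes (24.1%) in the whole table. On the opposite strand the shares were 31.7% and 24.7%. Among the members that stood above the family, as defined below, 4 of the 8 with an entry held a motif (Rps27, Rpl38, Rpl37a and Rpl35), and among those below it 2 of the 4 with an entry did (Rpl31 and Rpl28). A match describes these letters in this window only.

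Ribosomal protein messages made up 39.5% of all UMIs in the control library (interval 39.48% to 39.53%) and 49.2% in the TGR library (interval 49.22% to 49.27%). The log2 ratio of the shares was 0.32. Set against all other UMIs, the family was 1.49 times as large. Per cell the median number of family UMIs was 1562 in the control and 3026.5 in the TGR library, a ratio of 1.94. The median number of all other UMIs was 2463 and 3232.5, a ratio of 1.31. More UMIs of both kinds were therefore counted per TGR cell, and the larger part of the difference was ribosomal. UMIs per cell also depend on capture and sequencing depth, which were not compared between the libraries. The barcodes left out, all of them for mitochondrial content, had median family shares of 14.5% among 209 control barcodes and 21.1% among 2 TGR barcodes.

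To compare cells at equal depth, each was thinned at random to 1500 UMIs, and 91 control cells with fewer UMIs were set aside, as were 0 TGR cells. The median share per cell was then 39.2% in 3036 control cells and 48.9% in 2546 TGR cells, and without thinning 39.2% and 48.9%. The middle 90% of cells lay between 32.7% and 46.0% in the control library and between 42.4% and 54.3% in the TGR library, so the upper tail of one overlapped the lower tail of the other. Only 42 control cells (1.38%, interval 0.999% to 1.87%) exceeded the TGR median, and 2511 TGR cells (98.6%, interval 98.1% to 99.0%) exceeded the control median. The extremes were 20.1% and 55.3% among control cells and 23.6% and 69.6% among TGR cells.

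**Figure D1:**
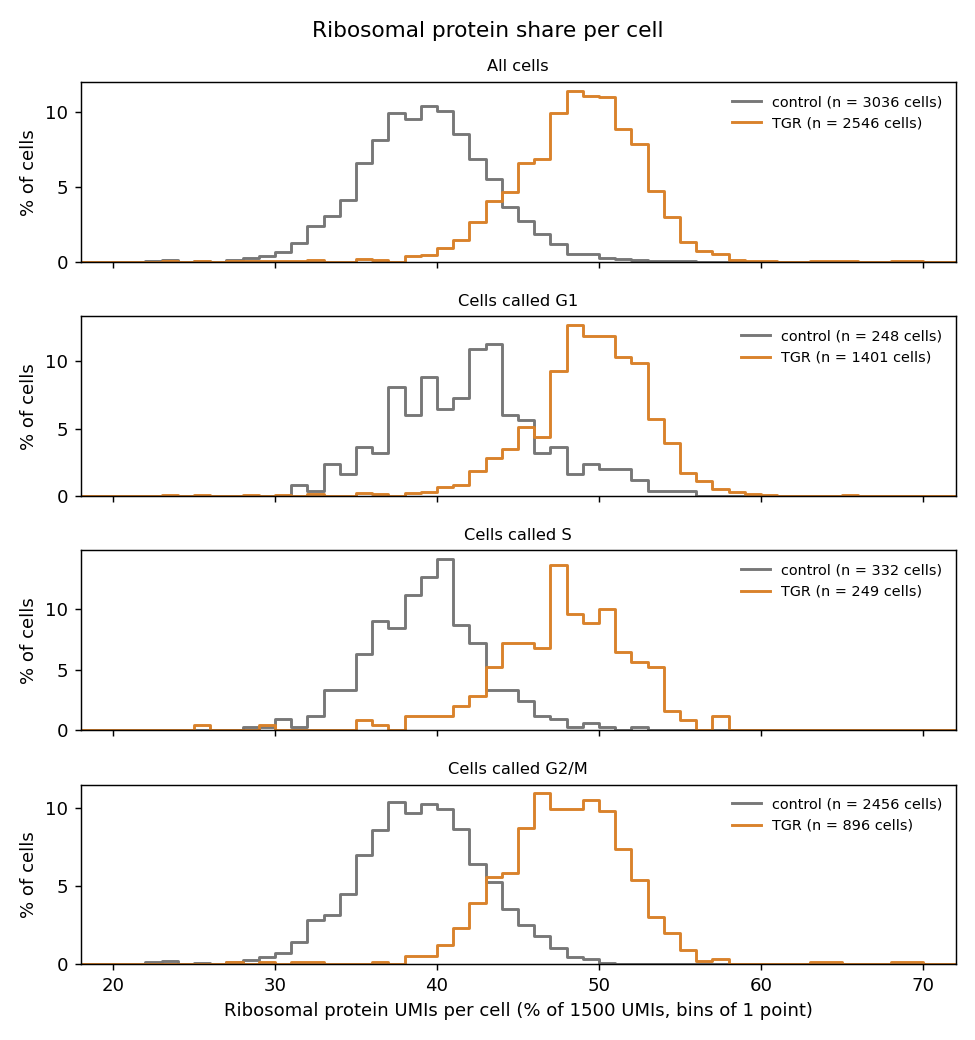
Share of UMIs on ribosomal protein genes per cell (x axis, percent of 1500 UMIs in bins of 1 point) against the percent of cells in the bin (y axis), for all cells and for cells called G1, S and G2/M. Grey lines are control cells and orange lines TGR cells. The TGR curve lies to the right in every panel, with medians of 48.9% against 39.2% over all cells.

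The spread between cells was close to equal in the libraries although the level was not. The standard deviation (SD) of the thinned share was 4.09 percentage points in control cells and 3.92 points in TGR cells, of which counting 1500 UMIs alone gives 1.26 and 1.29 points. Removing that part left an SD of 3.89 points in control cells and 3.70 points in TGR cells. When the control barcodes with high mitochondrial content were put back, the control value was 5.98 points and the TGR value 3.75 points. Most of the cell to cell variation was thus beyond counting error, and it was of about the same width in both conditions.

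Across cells the share was lower where the score for G2/M genes was higher, with a Pearson r of -0.30 over 3036 control cells and -0.25 over 2546 TGR cells (Spearman rho -0.27 and -0.21). For S phase genes r was -0.10 and -0.19 (rho -0.09 and -0.18). These are descriptions over cells of 1 library each, and share and score are parts of the same UMI total. Against the log10 of UMIs per cell r was 0.06 in control and 0.23 in TGR cells (rho 0.06 and 0.21). Against the mitochondrial share r was -0.17 and -0.27 (rho 0.03 and -0.13), and in the control cells r and rho thus differed in sign.

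The libraries differed widely in cell cycle calls: 8.17% of control cells and 55.0% of TGR cells were called G1, 10.9% and 9.78% S, and 80.9% and 35.2% G2/M. None of the 43 S and 54 G2/M genes used for these calls is a member. The calls rest on gene scores computed over both libraries together, and DNA content was not measured. They are labels for comparing cells and not measured fractions of the culture in each phase. The median share was 42.1% in 248 control cells and 49.6% in 1401 TGR cells called G1. It was 39.4% in 332 control and 47.9% in 249 TGR cells called S, and 39.0% in 2456 control and 47.9% in 896 TGR cells called G2/M. The TGR median was therefore the higher one within each call, by 7.53, 8.50 and 8.93 points, against 9.73 points over all cells. Cells were also split into 3 bands at 3949 and 6355 UMIs. The unthinned medians were 39.2% and 48.1% in the lowest band, 38.7% and 48.5% in the middle band and 40.2% and 49.7% in the highest band, again higher in the TGR cells each time.

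Member by member, the shift of the family was broad and shallow. Of the 78 scored members, 69 had a higher CPM in the TGR library, and their median log2 ratio was 0.29, against -0.16 over all 6667 scored genes. At a threshold of 1.5-fold with an interval leaving out a ratio of 1, 12 members were higher and 1 was lower, Rps27l. Over all scored genes 9.33% were higher and 21.8% were lower at that threshold. The members kept closer together than other genes did: the interquartile range of their log2 ratios was 0.25, against 0.75 over all scored genes and 1.12 over the 69 other genes with at least 1000 CPM, of which 11.6% were higher and 36.2% lower. The count depends on the scaling. With TMM or DESeq2 factors, which move all ratios by 0.17 and 0.16 on the log2 scale, 19 members were higher, and with totals that leave out ribosomal protein and mitochondrial genes, a move of 0.26, 30 were. The number of members with a ratio under 1, which was 9, was 3 with TMM and with DESeq2 factors and 2 with the reduced totals. Rps27l remained under 1 with every scaling, and Rpl8, Rpl28, Rpl11, Rpl21 and Rpl31 turned to over 1 with all 3 other scalings.

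The most abundant members by UMIs followed the family. Rpl32 had 10982 CPM in the control library and 14384 CPM in the TGR library, Rps19 10755 and 12289 CPM, and Rpl41, which encodes the shortest protein of the ribosome, 9060 and 12967 CPM. Rps18 had 9073 and 11910 CPM. Relative to the family these 4 stood between -0.13 and 0.20 on the log2 scale.

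To see which members departed from that shift, the share of each in the family's own UMIs was compared, which no scaling of the libraries can alter. A member departed upwards when its TGR share was at least 25% larger than its control share, and downwards when its control share was at least 25% larger than its TGR share, in both cases with an interval leaving out equality. By that measure 10 members stood above the family and 9 below it, and 59 of 78 lay within 25%. Around their own median, 28.1% of all scored genes were higher and 27.7% lower by 25% in the same sense, as were 37.7% and 37.7% of the other genes with at least 1000 CPM. The shares of members departing were thus smaller than those backgrounds. At 1.5-fold, 5 members were above (Rps27, Rps29, Rps28, Rpl38 and Rpl39) and 2 below, with Rps27l the lowest, against 14.5% and 15.3% of all scored genes. Just outside the threshold of 25% lay Rpl34 on the upper side, with a log2 ratio of 0.32, and Rps2 on the lower side, with -0.26. Just inside lay Rpl35 with 0.38 and Rpl31 with -0.32.

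**Figure D2:**
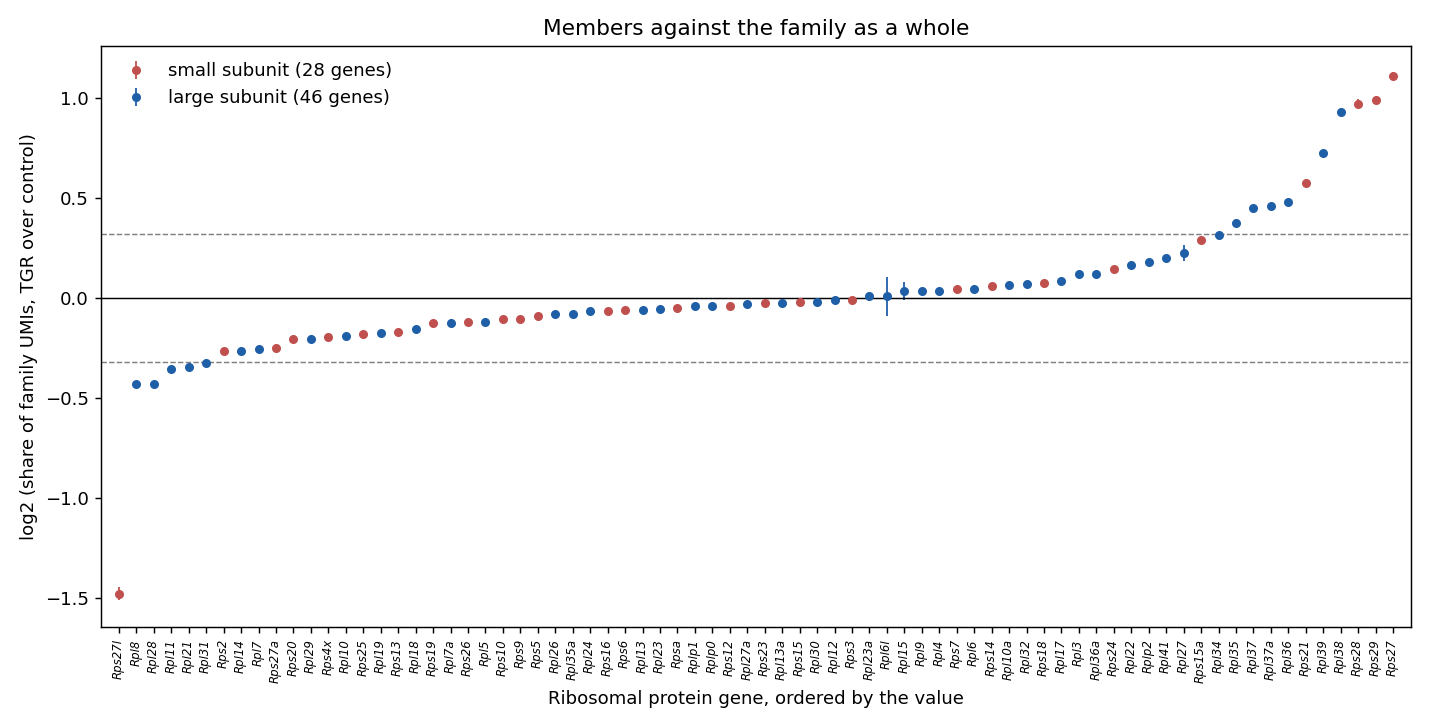
Log2 ratio, TGR over control, of each scored member's share of the family's UMIs (y axis), with members in order of the value (x axis) and small subunit genes in red and large subunit genes in blue. Bars are 95% counting intervals, often smaller than the point, and dashed lines mark 25% in either direction. A flat middle separates the 10 members above, led by Rps27 at 1.11, from those below, ending with Rps27l at -1.48, and 4 of the 78 scored members are not drawn.

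The small subunit supplied both ends of the order. Rps27 (chromosome 3, 90212522 to 90213651, minus strand, GRCm38, 4 exons), a zinc-binding protein of the small subunit, had 2416 CPM in the control library and 6506 CPM in the TGR library. Its share of family UMIs was 2.16 times as large (interval 2.14 to 2.19). Rps29 (chromosome 12, 69157722 to 69159186, minus strand), a zinc-binding protein of the small subunit head, had 2808 and 6960 CPM, and its share was 1.99 times as large (interval 1.97 to 2.01). Rps28 (chromosome 17, 33819027 to 33824562, minus strand), which lies by the path of the message, had 1451 and 3545 CPM, a share 1.96 times as large (interval 1.93 to 1.99). In each of these 3 genes the TGR share was close to 2 times the control share.

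Rps21, also of the small subunit, had 1696 CPM in the control library and 3149 CPM in the TGR library, a log2 ratio within the family of 0.57. On the low side 4 small subunit members departed from the family, of which Rps27l, described with its paralog, was the lowest.

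Among large subunit genes Rpl38 (chromosome 11, 114668524 to 114672331, plus strand), known for its part in translating some Hox messages in the embryo, had 1739 CPM in the control library and 4133 CPM in the TGR library. Its share of the family was 1.91 times as large (interval 1.88 to 1.93). Rpl39 (X chromosome, 37082520 to 37085402, minus strand), which lines the exit tunnel of the new peptide, had 4097 and 8436 CPM, a share 1.65 times as large (interval 1.64 to 1.67). Rpl36 (3975 and 6915 CPM), Rpl37a (4717 and 8095 CPM), Rpl37 (4464 and 7607 CPM) and Rpl35 (1658 and 2681 CPM) followed, with log2 ratios within the family of 0.48, 0.46, 0.45 and 0.38. The lowest large subunit members were Rpl8 (5860 and 5420 CPM), Rpl28 (5259 and 4874 CPM), Rpl11 (5229 and 5094 CPM), Rpl21 (4516 and 4429 CPM) and Rpl31 (3602 and 3591 CPM), at -0.43, -0.43, -0.36, -0.35 and -0.32. None of these 5 reached 1.5-fold in either measure.

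By role, the 9 zinc-binding members stood highest. Their median log2 ratio within the family was 0.32, 4 of 9 departed upwards (Rps27, Rps29, Rpl37 and Rpl37a) and 0 downwards, and together they took 9.07% of family UMIs in the control and 11.3% in the TGR library. Of all 78 scored members 10 departed upwards and 9 downwards. Rps27l, the paralog of Rps27, is not on that list and stood at -1.48, so the 0 downwards rests on its being left out. The 4 zinc-binding genes that departed are also among the members with coding sequences of up to 300 nt, described below. Zinc binding and short coding length thus overlapped and were not separated. Of the 9 members at the exit tunnel, Rpl39 and Rpl35 departed upwards and Rpl31 downwards. Of the 8 at the decoding centre and message path only Rps28 departed. The 4 stalk genes, which recruit translation factors, did not depart (-0.04 to 0.18), nor did the 6 proteins that join late in assembly (-0.20 to 0.20). Rpl5 and Rpl11, which bind the 5S RNA and can restrain Mdm2, stood at -0.12 and -0.36. The 18 genes listed for Diamond-Blackfan anaemia, a disease of red cell formation, were split, with 4 above, 3 below and the median at -0.08. Some genes sit in more than 1 of these lists.

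As a whole the subunits stayed near balance. Small subunit genes made up 45.3% of family UMIs in the control library (interval 45.29% to 45.37%) and 44.3% in the TGR library (interval 44.28% to 44.34%), a difference of -1.01 points. At 500 family UMIs per cell the median was 45.4% in 3096 control cells and 44.2% in 2546 TGR cells. The SD beyond counting was 0.54 points in control cells and 0.80 points in TGR cells, which is small beside the 3.89 and 3.70 points of the family share itself. The share of the whole family thus varied between cells far more than its split between subunits.

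The members that stood above the family were mostly those with the shortest coding sequences. Of the 10 scored members with a coding length of up to 300 nt, 8 were above the family, Rpl41 (75 nt) was at 0.20 and Rps27l was below. Of the 46 members over 300 and up to 600 nt, 2 were above and 6 below, and of the 21 scored members over 600 nt, 0 were above and 2 below. The 11 short members, Rpl39l included, took 8.57% of family UMIs in the control and 12.6% in the TGR library. Over the 77 scored members with a coding length, the log2 length had a Pearson r of -0.42 and a Spearman rho of -0.43 with the log2 ratio within the family. Without Rps27l and Rpl41, left out after their values were seen, r was -0.60 and rho -0.46 over 75 members. The points share their libraries, and no test goes with these values.

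**Figure D3:**
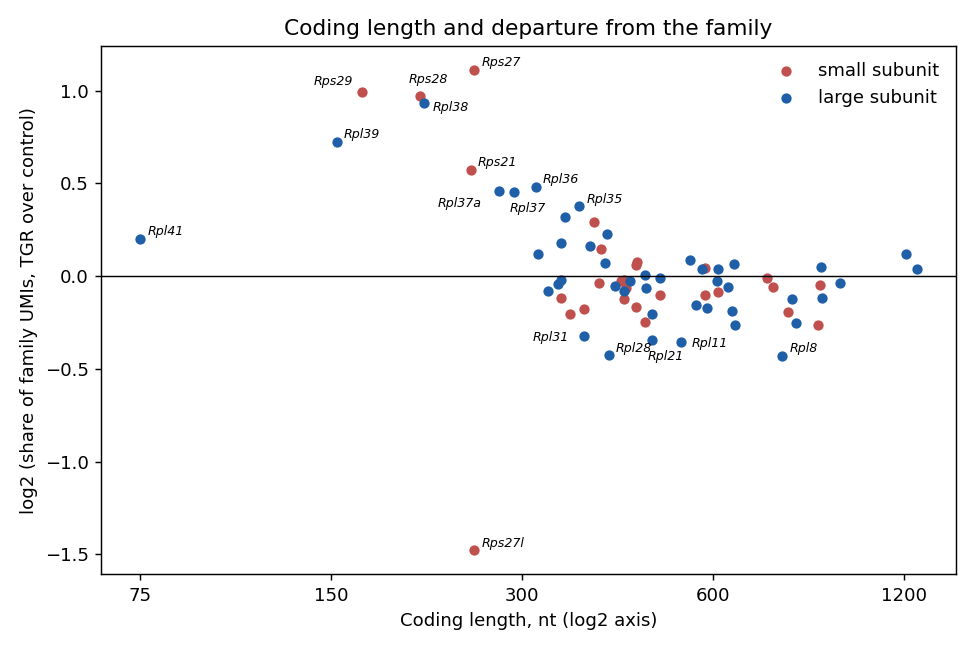
Coding length of each scored member in nucleotides (x axis, log2 scale) against the log2 ratio, TGR over control, of its share of the family's UMIs (y axis), with small subunit genes in red and large subunit genes in blue. Points from 153 to 291 nt lie at 0.45 or above apart from Rps27l at -1.48, Rpl41 at 75 nt lies at 0.20, and points over 600 nt scatter around and below 0. As in the plot of members in order, 4 scored members are not drawn.

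Other properties, as annotated, had weaker correlations with the ratio. Pearson's r was -0.26 for the length of the whole message, -0.21 for the number of exons, 0.10 for GC content, 0.12 for the share of the message's 3′ end found in another gene, and 0.02 for the log2 mean CPM. Message length, exons, GC content and 3′ end come from 1 annotated transcript per gene. For some members it is far longer than the coding sequence, as for Rps15a (5179 nt against 390 nt) and Rps20 (3706 nt against 357 nt). Whether that transcript is the one present was not tested, so these values do not rank message length against coding length. Outside the family short coding sequences did not go with higher ratios. Over 6475 other scored protein-coding genes r between log2 coding length and log2 ratio was 0.12. The 190 of these with up to 300 nt had a median log2 ratio of -0.32, with 15 higher and 66 lower at 1.5-fold, against 9.33% and 21.8% of all scored genes. Among the most abundant of them, the actin-binding thymosins Tmsb4x and Tmsb10 had 15396 and 4868 CPM in the control library and 7146 and 4162 CPM in the TGR library. Cox7c, a subunit of the respiratory chain, had 953 and 1190 CPM.

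The difference in short members was spread over the cells of each library. The cells divide the same UMIs that gave the pooled shares, so the values per cell are no independent check. When each cell was thinned to 500 family UMIs, the short members took a median of 8.20% in control cells and 12.2% in TGR cells. The middle 90% of cells ran from 6% to 11.0% and from 9.40% to 15.4%. Only 24 of 3096 control cells (0.775%) exceeded the TGR median, and 16 of 2546 TGR cells (0.628%) lay below the control median. In cells called G1 the medians were 7.80% and 12.0%, in S 8.20% and 12.4%, and in G2/M 8.20% and 12.4%. The SD beyond counting was 0.81 points in control cells and 1.19 points in TGR cells.

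The departures were seen within each cell cycle call and each UMI band. The departing members had been chosen from the pooled UMIs of the same cells, which the calls and bands only divide. Agreement of these subsets with the whole was therefore partly set by that choice and is no independent check. It shows only that the departures were not confined to a single call or band. All 10 members above the family were above it by at least 25% in cells called G1, S and G2/M and in the lowest, middle and highest band. All 9 below it were below in the same 6 subsets, with between 5 and 9 of them past 25%. Rps27, for example, stood at 1.15 in G1, 1.18 in S and 1.11 in G2/M on the log2 scale. The call itself went with small differences in these genes. Between control cells called G2/M and G1, the share of the family differed on the log2 scale by 0.23 for Rps29, 0.14 for Rps21, 0.14 for Rpl41 and 0.06 for Rps27.

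**Figure D4:**
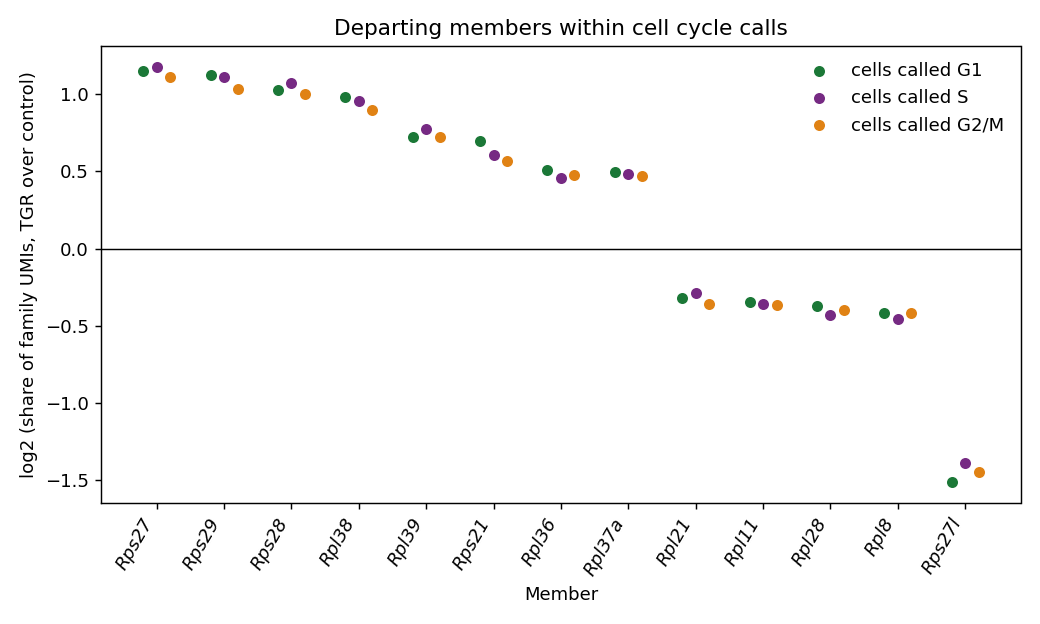
Log2 ratio, TGR over control, of a member's share of family UMIs (y axis) for the 8 members highest and 5 of the 8 lowest in that ratio (x axis), computed separately in cells called G1 (green), S (purple) and G2/M (orange). Within each member the 3 points lie close together and on the same side of 0, as for Rps27 at 1.15, 1.18 and 1.11. The members were picked by this ratio over all cells, these included.

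Within a library, the variance of single members between cells was close to what counting few UMIs gives. Mean UMIs per thinned cell ran from 0.113 (Rpl6l) to 13.8 (Rpl32) in control cells and from 0.114 to 14.5 in TGR cells. At such counts a variance near that of counting does not show that a member's level varied little between cells. At 500 family UMIs per cell, the variance of a member's UMIs over the binomial variance had a median of 1.06 in control cells (range 0.968 to 1.27) and 1.08 in TGR cells (range 0.946 to 1.29). In the control cells the highest were Rpl41 (1.27) and then Rps27l. In the TGR cells the highest were Rps2 (1.29), Rps29 (1.29), Rpl37a (1.26) and Rpl41 (1.253). Rps29 was at 1.10 and Rpl37a at 1.10 in the control cells.

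The largest departure of all was a paralog. Rps27l (chromosome 9, 66946086 to 66949516, plus strand, 4 exons) encodes a close relative of Rps27 and is known as a target of p53 in human cells. It had 1418 CPM in the control library and 634 CPM in the TGR library, and its share of family UMIs was 2.79 times smaller in the TGR library (interval 2.72 to 2.85). Rps27, its partner, was the member farthest above the family, so the pair separated in opposite directions. The coding sequences of both are shown because these 2 genes mark the ends of the order, from GENCODE M21 transcripts on GRCm38, 5′ to 3′, with the bases of Rps27l that differ from Rps27 in capitals.
Rps27: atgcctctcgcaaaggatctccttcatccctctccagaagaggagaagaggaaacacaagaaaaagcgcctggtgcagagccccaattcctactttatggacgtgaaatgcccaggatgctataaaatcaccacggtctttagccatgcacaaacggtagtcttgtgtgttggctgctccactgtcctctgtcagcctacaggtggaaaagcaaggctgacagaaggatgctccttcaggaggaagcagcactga
Rps27l: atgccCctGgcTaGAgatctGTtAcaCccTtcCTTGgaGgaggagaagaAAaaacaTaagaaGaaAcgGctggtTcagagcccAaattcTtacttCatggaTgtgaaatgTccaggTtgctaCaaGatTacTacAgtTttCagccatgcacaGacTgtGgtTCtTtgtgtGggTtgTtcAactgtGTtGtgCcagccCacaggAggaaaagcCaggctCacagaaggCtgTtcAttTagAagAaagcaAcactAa

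The 2 sequences were identical at 194 of 255 bases (76.1%), stop codon included. Rps27l supplied 37.0% of the UMIs of the pair in the control library (interval 36.6% to 37.4%) and 8.89% in the TGR library (interval 8.74% to 9.04%), 4.16 times less. Single cells thinned to 1500 UMIs hold a part of the same UMIs and are no independent check. Their mean number of Rps27 UMIs was 3.58 in control and 9.43 in TGR cells, and that of Rps27l 2.04 and 0.886. Rps27l had more UMIs than Rps27 in 651 of 3036 control cells (21.4%, interval 20.0% to 22.9%) and in 6 of 2546 TGR cells (0.236%, interval 0.0865% to 0.512%). The intronless gene Rps27rt on chromosome 9, outside the rule, is identical to Rps27 at 255 of 255 coding bases. It had 144 CPM in the control library and 432 CPM in the TGR library, and all of the windows tested at the 3′ end of Rps27 (100%) occur in another gene. How reads that match both were assigned is not given in the sources used here, so the counts of Rps27 and Rps27rt are uncertain against each other, whereas 3.32% of the Rps27l windows were shared.

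The other pairs moved less, or rested on few UMIs. Rpl22l1, whose product can replace the RNA-binding protein Rpl22, supplied 42.7% of the pair in the control library (interval 42.3% to 43.1%) and 41.5% in the TGR library (interval 41.2% to 41.8%), with Rpl22 at 2084 and 2909 CPM and Rpl22l1 at 1554 and 2060 CPM. Rpl36al supplied 28.4% (interval 28.1% to 28.8%) and 24.1% (interval 23.8% to 24.3%) beside Rpl36a, and 64.5% of its 3′ windows and 100% of those of Rpl36a occur in another gene. Rpl7l1, a relative of Rpl7 found on precursors of the large subunit, had 49.97 CPM in the control library and 26.1 CPM in the TGR library, which is 1.30% and 0.654% of its pair with Rpl7. The tissue-restricted paralogs were close to absent. Rpl39l, known from testis, was 0.0629% of its pair with Rpl39 in the control and 0.0114% in the TGR library, from 38 and 19 UMIs, and Rpl3l, known from muscle, was not seen among 67045 and 121326 UMIs of the pair with Rpl3, which allows shares of up to 0.00447% and 0.00247% (taken as 3 UMIs of the pair per library, a smaller bound than the exact interval gives).

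**Figure D5:**
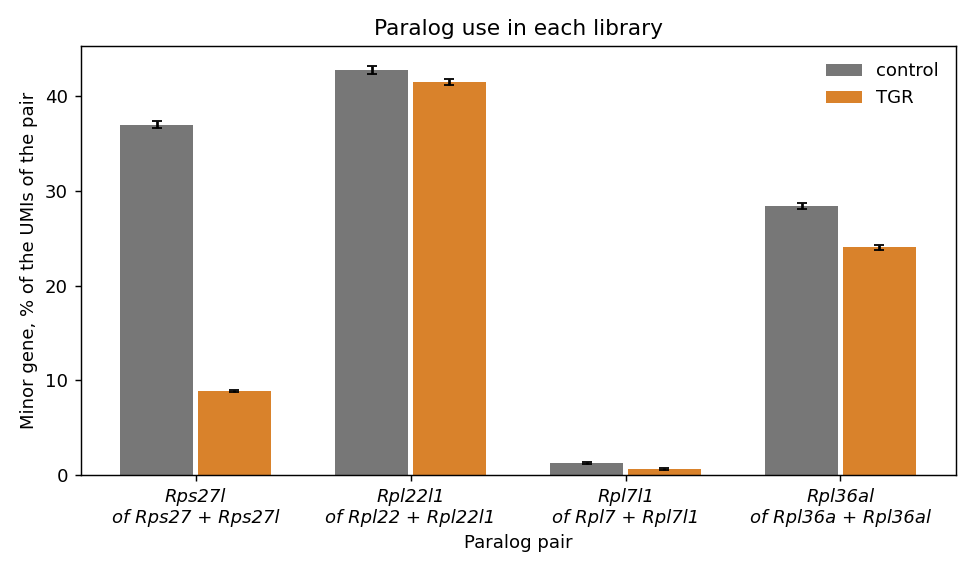
UMIs of the minor gene as a percent of the UMIs of both genes (y axis) for 4 paralog pairs (x axis), in the control library (grey) and the TGR library (orange), with 95% counting intervals. Rps27l drops from 37.0% to 8.89%, while Rpl22l1 is at 42.7% and 41.5%.

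Relatives that the naming rule leaves out went with the family in part. Fau, which encodes Rps30 fused to a ubiquitin-like protein, had 3852 CPM in the control library and 6194 CPM in the TGR library, a log2 ratio of 0.69. Rps3a1 had 5739 and 5371 CPM (log2 ratio -0.10) and Gnb2l1, which encodes the ribosome scaffold Rack1, 2475 and 2753 CPM (0.15). Of 12 scored copies and pseudogenes with ribosomal protein names 4 were higher (Rps27rt, Rpl36-ps3, Rpl27-ps3 and Rps18-ps3) and 0 lower, with a median log2 ratio of 0.49. The shares over all scored genes were 9.33% higher and 21.8% lower. Rps27rt stood at 1.59 and Rpl36-ps3 (49.9 and 134 CPM) at 1.42, above their parent genes Rps27 (1.43) and Rpl36 (0.80). The most abundant, Rps12-ps3, had 346 and 452 CPM. The member Rpl6l is annotated as a processed pseudogene, its 3′ windows all occur in Rpl6 or other copies, and it had 92.5 and 116 CPM.

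Other messages with a TOP tract had CPM ratios closer to 1. Of 21 scored genes on that list, 0 were higher and 0 lower at 1.5-fold, and their median log2 ratio was 0.13, against 0.29 for the members. Among all scored genes 9.33% were higher and 21.8% lower. The elongation factor gene Eef1a1 had 7425 CPM in the control library and 9705 CPM in the TGR library, Eef2 1629 and 2281 CPM, and the initiation factor subunit Eif3e 344 and 492 CPM. Tpt1, a TOP message of a growth-related protein, was nearly level with 4812 and 5250 CPM. The ratios ran from -0.43 to 0.52 on the log2 scale, and 7 of the 21 were under 1, among them Eif3a (269 and 199 CPM), Nap1l1 (534 and 405 CPM) and Eef1g (1789 and 1531 CPM), named after their values were seen. These counts depend on the scaling, as those of the members do. Totals without ribosomal protein and mitochondrial genes move all log2 ratios by 0.26. That move would take Eef2 (0.49) and Eif3e (0.52) past 1.5-fold and turn Eef1g (-0.22) to over 1. Eif3a (-0.43) and Nap1l1 (-0.40) would stay under 1. The median of the list stood between those of the family and of all scored genes, an order that scaling cannot alter.

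Genes that handle ribosomal proteins or finish the subunits stood on the other side. Of 15 scored genes on a list of chaperones and importers of ribosomal proteins, 1 was higher (Pdcd2) and 7 were lower, with a median log2 ratio of -0.40. The 7 were Grwd1, Heatr3, Bccip, Ltv1, Ipo4, Ipo5 and Nacc1. Nacc1 is not known for either role, and Ltv1 is also counted as lower in the list of subunit export and late maturation. Grwd1, a chaperone of Rpl3, had 19.6 CPM in the control library and 6.90 CPM in the TGR library, and the importer Ipo4 13.5 and 7.46 CPM. The abundant Nap1l1 (534 and 405 CPM) and Kpnb1 (118 and 92.5 CPM) did not reach 1.5-fold. Of 11 scored genes of subunit export and late maturation, 0 were higher and 6 lower, and the median log2 ratio was -0.65. Beside these 2 lists, 9.33% of all scored genes were higher and 21.8% lower at 1.5-fold. Eif6, which keeps immature large subunits from joining, had 160 and 65.9 CPM, and the export factor Nxt1 99.1 and 43.1 CPM. The medians of both lists were thus further below that of all scored genes, which was -0.16, while the median of the ribosomal protein messages was above it. Protein was not measured.

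Regulators of TOP messages and of mTORC1 showed no common direction. Of 16 scored genes 2 were higher, the mTORC1 inhibitors Ddit4 and Sesn2, and 1 was lower, Larp4, with a median log2 ratio of -0.15. Sesn2 had 6.38 CPM in the control library and 11.8 CPM in the TGR library, and Larp4 had 24.8 and 15.03 CPM. Larp1, a repressor of TOP translation, had 77.9 and 61.7 CPM, and the translation inhibitor Eif4ebp1 146 and 217 CPM, and neither reached 1.5-fold. Of 11 scored genes of ribosome dormancy, rescue and collision, 0 were higher and 4 lower (Abce1, Pelo, Gcn1l1 and Nemf), and the median was -0.47. For comparison with both lists, 9.33% of all scored genes were higher and 21.8% lower at 1.5-fold. The recycling factor Abce1 had 46.2 and 24.4 CPM and the rescue factor Pelo 12.3 and 7.16 CPM. Serbp1, which occupies idle ribosomes, had 787 and 569 CPM, and Rnf10, a ubiquitin ligase for stalled small subunits, 69.4 and 49.1 CPM, both within 1.5-fold.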

How the data were processed

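The deposited files hold whole-number UMI counts per gene and barcode, not normalized, for 2 libraries. Cell Ranger 2.2, Seurat 3 and mm10 are named in the submitters' processing notes. Their roles, strand setting and treatment of reads that match several genes are not given in the sources used here. The members, gene lists and tests were chosen with earlier results of these data known.

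UMIs of kept cells were summed per library and scaled to CPM. Log2 ratios are TGR over control with 0.5 UMI added, scaled by library size. Intervals came from the split of a gene's UMIs between libraries (scipy 1.17.1). A list gene counted as higher or lower at 1.5-fold with an interval leaving out 1. These counts use CPM of total UMIs and depend on the scaling. Cells were thinned once at random with a fixed seed. Phases were called with scanpy 1.11.5 on cells thinned to 1500 UMIs. Doublets were left in and not called. Coding lengths exclude the stop codon and come from GENCODE M21, in which 27645 of 27998 gene identifiers matched. Shared 3′ ends are exact matches of 90-base windows, in the last 300 bases of 1 transcript per gene, to a transcript of another gene. The named members are the 8 highest and 8 lowest within the family, the other members past 25%, the 5 with the highest mean CPM, the paralog pairs and the role lists. A few genes picked in this way are not reported here. From each other list came the 2 genes with the largest ratio and the 2 most abundant, and genes named for a small count were chosen after their values were seen. Alternatives used TMM factors (edgeR 4.0.16), size factors from DESeq2 1.42.0, other filters, phases, UMI bands, centrings and depths. The ratio and interval steps were tested on simulated data.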

Additional observations from a re-analysis of the deposited data

How the results depend on the processing

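No paired analysis was possible because each condition has 1 library, and no replicate could be left out for the same reason. The alternatives run kept the direction of the family share, the per-cell share, the subunit difference, both pairs named here and the named ratios within the family. The CPM ratios of 7 members crossed 1 with another scaling, and the order of the libraries in the spread between cells turned in some subsets. The log2 ratio of the family share (0.32) was 0.34 with all deposited barcodes, 0.32 with at least 1000 genes and under 5% mitochondrial UMIs, 0.26 in cells called G1, 0.31 in S, 0.31 in G2/M, 0.28, 0.31 and 0.31 in the lowest, middle and highest UMI band, and 0.31 with equal weight for each cell. The difference of per-cell medians (9.73 points) was 9.87 with all barcodes, 7.53 in G1, 8.50 in S, 8.93 in G2/M, and 9.27, 9.63 and 9.60 in the bands. The count of higher members (12) was 19 with TMM factors, 19 with DESeq2 factors and 30 with totals without ribosomal protein and mitochondrial genes. The count of lower members (1) was 2 with no minimum CPM, which adds Rpl39l. The counts above and below the family (10 and 9) stayed between 10 and 12 and between 6 and 10. The subunit difference (-1.01 points) was -0.81 in S, -0.84 in G2/M, -1.36 and -1.20 in the lowest and middle band, and -1.13 and -1.12 with cells thinned to 1500 and 3000 UMIs.

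The SD beyond counting in control cells (3.89 points) was 5.98 with all barcodes, 3.53 with the stricter filter, 4.402 in G1, 3.32 in S, 4.18, 3.67 and 3.41 in the bands, and 3.74 at 3000 UMIs. In TGR cells (3.70 points) it was 3.44 with the stricter filter, 3.51 in G1, 4.13 in S, 5.03, 3.46 and 3.25 in the bands, and 3.52 at 3000 UMIs. It was thus the larger of both in control cells over all cells and in G1, but the larger in TGR cells in S and in the lowest band. The log2 ratio of the Rps27l share of its pair (-2.06) was -2.12 in G1, -2.002 in S, and -2.24 and -2.17 in the lowest and middle band. That of Rpl22l1 (-0.04) was -0.080 in S, and -0.10 and -0.068 in the lowest and middle band. Among the main results, 48 of the values moved beyond their counting interval and 69 did not. Among single members and other pairs, 159 of the values moved beyond their counting interval and 177 did not. The cause of these moves was not tested.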
